A study of Homo sapiens with 9 samples.

Results

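The 38 genes described here encode parts of the lysosome and of the autophagy pathway, among 31558 genes counted in HCT116 cells, a human colorectal carcinoma line. They were chosen by gene symbol. Among them are 3 of the MiT/TFE transcription factors (TFEB, TFE3 and MITF, without TFEC) and 20 genes for enzymes, lipid-handling and membrane proteins of the lysosome. These 20 include 7 cathepsins and 6 glycosidases. The rest are 4 genes of the lysosomal proton pump and 11 autophagy genes. All 38 were found in the table. Polyadenylated RNA was sequenced from 9 samples in 3 groups of 3 biological replicates. CRLM1-OE cells overexpressed the long non-coding RNA CRLM1 (LINC01767), Ctrl cells carried the empty plasmid, and Anti cells expressed the antisense sequence of CRLM1. Per the study's methods CRLM1 was expressed from a lentiviral pTSB-GFP-puro vector with puromycin selection. The study's results section describes the sequenced HCT116 cells as transfected. Whether they were selected, whether Ctrl and Anti cells were made the same way, and which promoter drove CRLM1 are not given in the sources used here. Nor is it given whether replicates were separate transfections or samples of 1 line, or whether a line was 1 clone or a pool. If they were samples of 1 line, the p-values measure only the spread between samples of that line.

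Lysosomes are acidic compartments in which hydrolases break down proteins, glycans and lipids, and a proton pump, the V-ATPase, keeps them acidic. Autophagy delivers cytoplasm to them: a kinase complex starts a membrane sheet, ubiquitin-like ATG8 proteins coat it, and cargo receptors link it to what is degraded. TFEB, TFE3 and MITF bind an E-box with the core CACGTG in the promoters of many lysosomal and autophagy genes, and are held in the cytoplasm by mTORC1 when nutrients are plentiful, so that their activity is set largely after transcription.

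Libraries held 33302292 to 44514692 counts, and a count of 3 corresponded to 0.0674 to 0.0901 CPM (counts scaled to a common library size by TMM factors). The counts of members ranged from 55 to 47691 per sample, and 37 of the 38 averaged at least 100 counts (MITF did not). CRLM1 itself had 38704, 32751 and 35726 counts in CRLM1-OE, none in the 3 Ctrl libraries and 1951, 1777 and 1540 in Anti. Whether counting used strand is not given in the sources used here, so sense and antisense reads in Anti cannot be told apart. Of 8 epithelial markers 6 exceeded 1 FPKM, and CDX1 and VIL1 were near 0. Their summed level was 4849 to 4983 FPKM in CRLM1-OE, 5520 to 5558 in Ctrl and 4572 to 4627 in Anti, and its part in the results below was not tested. Summed leukocyte, fibroblast and endothelial markers stayed at or below 2.5 FPKM. In bulk RNA, fewer expressing cells and less RNA per cell cannot be told apart.

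Sorted by length-scaled level, the members ranged in Ctrl from 0.253 FPKM for MITF to 276 FPKM for SQSTM1. SQSTM1, the ubiquitin-binding autophagy receptor p62, stood well above CTSB at 108 FPKM. CTSZ, GAA, MAP1LC3B and LAMP1 followed at 65.0, 64.9, 59.8 and 57.0 FPKM. CTSZ and GAA did not differ beyond their spread. Of the factors, TFE3 at 15.9 FPKM was far above TFEB at 1.12 FPKM and MITF.

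**Figure D1:**
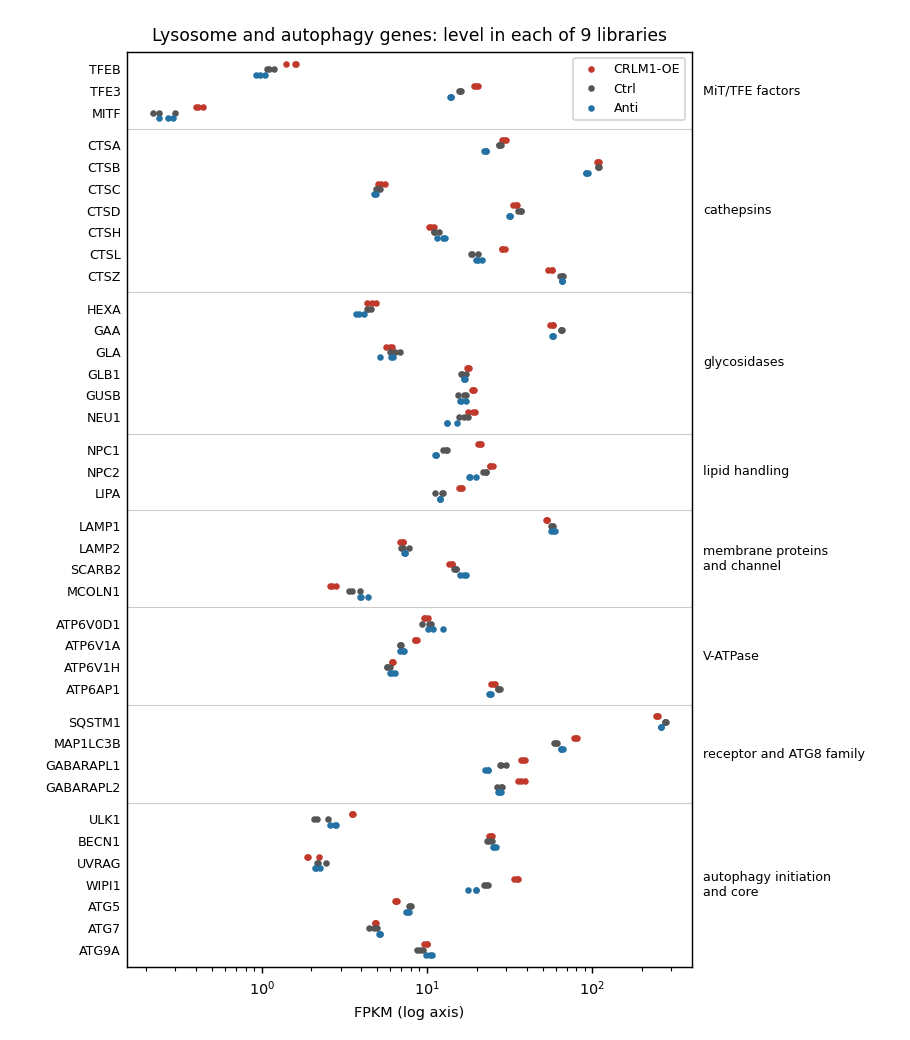
Level of each of the 38 genes (FPKM, log axis) in each of the 9 libraries, 1 point per library, with CRLM1-OE in red, Ctrl in grey and Anti in blue and genes grouped by role. SQSTM1 is at the top of the range at 276 FPKM in Ctrl and MITF at the bottom at 0.253 FPKM, and for no gene do the means of 2 groups differ by 2-fold.

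The first question was how the 38 genes differed in CRLM1-OE cells from each of the 2 controls. A gene was said to have passed the test, and is called higher or lower below, at an adjusted p of at most 0.05 (edgeR's quasi-likelihood test, Benjamini-Hochberg over all genes tested). Against Ctrl, 12 members were higher (31.6%), 15 were lower (39.5%) and 11 did not pass. Of all 29846 genes tested 15.0% were higher and 16.8% lower, but members are well expressed, and among the 11716 genes that averaged 100 counts or more (better-counted genes below) the shares were 29.2% and 38.8%. Members therefore passed about as often as the better-counted genes, which were not matched to them in count. The median log2 fold change of the members was -0.04, as was that of the better-counted genes (-0.04). Against Anti, 18 members were higher (47.4%) and 13 lower (34.2%), beside 17.1% and 18.5% of all 30183 genes and 33.9% and 40.2% of the 11765 better-counted genes. The median of the members was 0.07 there, and that of the better-counted genes -0.04. No member changed by 2-fold in either comparison at an adjusted or an unadjusted p, by edgeR, DESeq2 or limma. By edgeR at an adjusted p, 2.08% of the better-counted genes did against Ctrl and 4.43% against Anti. These shares are low, so an absence among 38 genes is not a trait of the members. The median absolute log2 fold change against Ctrl was 0.21 for members and 0.23 for better-counted genes.

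These splits depended on scaling. Using total counts in place of TMM factors moved the median log2 fold change of better-counted genes by 0.14 against Ctrl, by 0.06 for CRLM1-OE against Anti and by 0.10 for Anti against Ctrl. The members then split into 18 higher and 7 lower against Ctrl: CTSA, GLB1, GUSB, NEU1, NPC2 and ATG9A were added to those higher, and CTSB, CTSD, CTSH, GLA, LAMP2, SCARB2, ATP6V0D1 and UVRAG were no longer lower. Against Anti they split into 22 higher and 8 lower, with CTSC, CTSD, GLB1 and ATP6AP1 added to those higher and GAA, LAMP2, BECN1, ATG7 and ATG9A no longer lower. Shares of all or better-counted genes called with total counts are not given here. These splits therefore cannot be set beside a background on the same scale. With limma on either FPKM scale the same 8 genes were no longer lower against Ctrl, and against Anti the same 5 and ATP6V0D1. RLE factors, DESeq2, filterByExpr, the fit of all 9 samples and the replicate block changed few calls: against Ctrl one or more of them lost ATP6V0D1 and GLA and added GUSB as higher and BECN1 as lower, and against Anti lost LAMP2, ATG7 and ATG9A and added CTSD as higher. All fold changes below are relative to the TMM scale.

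Both comparisons use the same CRLM1-OE libraries, so their calls are given side by side. In all, 12 genes were higher against each control, and all 12 stayed higher and past the threshold in each of 14 alternative fits of either comparison: TFEB, TFE3, MITF, CTSL, NPC1, LIPA, ATP6V1A, MAP1LC3B, GABARAPL1, GABARAPL2, ULK1 and WIPI1. There were 10 genes lower against each control: CTSH, CTSZ, GAA, LAMP1, LAMP2, SCARB2, MCOLN1, ATP6V0D1, SQSTM1 and ATG5. Of these 10, CTSZ, LAMP1, MCOLN1, SQSTM1 and ATG5 stayed lower and past the threshold in all alternatives, and the other 5 missed it in at least 1, mostly with total counts or FPKM. GLB1 and ATP6V1H passed in none of the 3 comparisons.

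**Figure D2:**
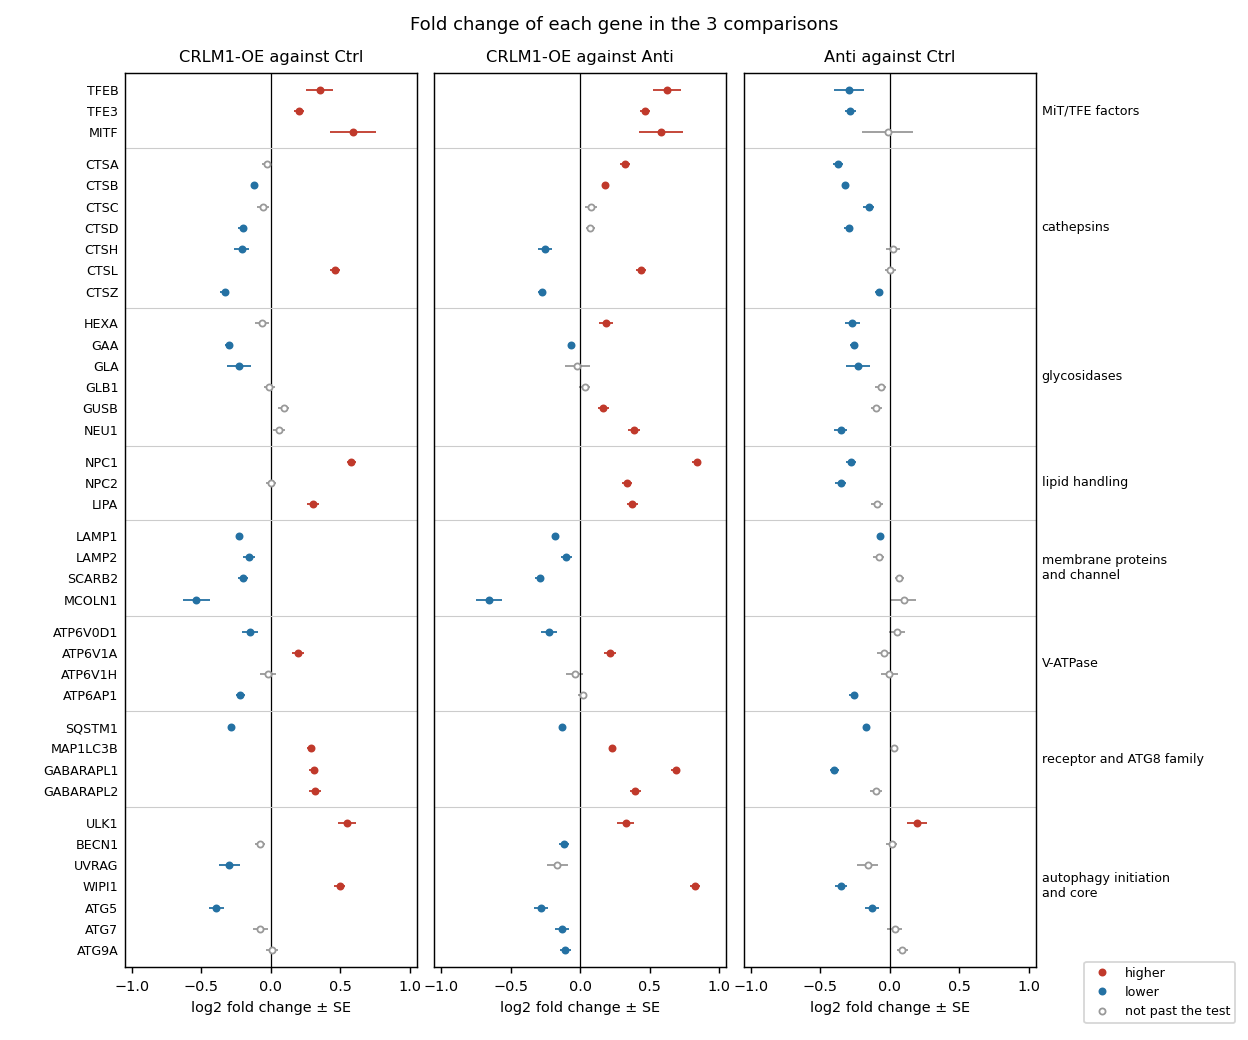
log2 fold change with its standard error (edgeR, x axis) of each gene in CRLM1-OE against Ctrl, CRLM1-OE against Anti and Anti against Ctrl, grouped by role. Red marks higher, blue lower and open grey not past an adjusted p of 0.05. The 3 factors and the 3 ATG8-family genes lie right of 0 in the first 2 panels. The 4 genes grouped as membrane proteins and channel lie left of 0 there. In the third panel 19 genes lie left of 0 and past the test.

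Each of the 3 MiT/TFE factors among the members rose in CRLM1-OE relative to either control. TFEB (chromosome 6, 41683978 to 41736259, GRCh38, reverse strand) measured 7.77, 6.85 and 8.0 CPM in CRLM1-OE, 6.19, 5.75 and 5.82 in Ctrl and 4.86, 4.63 and 5.29 in Anti. The 3 groups did not overlap, with CRLM1-OE at the top and Anti at the bottom. TFEB was 1.27-fold higher than in Ctrl (log2 fold change 0.35 ± 0.10, SE, adjusted p = 0.0017 by edgeR) and 1.54-fold higher than in Anti (0.62 ± 0.10, adjusted p = 5.7e-09). TFE3, the most abundant of the 3, stood at 75.4, 73.4 and 72.6 CPM in CRLM1-OE, 64.9, 64.3 and 63.3 in Ctrl and 52.9, 54.4 and 53.8 in Anti, again with no overlap. Its log2 fold changes were 0.20 ± 0.04 against Ctrl and 0.46 ± 0.03 against Anti. MITF, the melanocyte factor of the family, was scarce at 2.65, 2.94 and 2.75 CPM in CRLM1-OE, 1.75, 1.60 and 2.19 in Ctrl and 2.00, 1.68 and 1.88 in Anti. The CRLM1-OE libraries lay above all 6 others, and the log2 fold changes were 0.59 ± 0.16 and 0.58 ± 0.16. With log2(FPKM + 1) values the change of MITF fell to 0.18 against Ctrl, a scale that compresses scarce genes.

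Because the factors read an E-box, the promoter windows of the members (RefSeq, GRCh38.p14, 250 bases before to 50 after each transcript start) were searched for CACGTG and for the longer TCACGTGA, which contains it; both read the same on either strand. Windows were given for 32 of the 38 genes (42 windows). CACGTG occurred in 7 of the 42 (16.7%), each in a different gene, against 7.26% of all 35116 windows and 9.51% of those of better-counted genes. TCACGTGA occurred in 5 of 42 (11.9%), against 0.98% of all windows and 1.71% of those of better-counted genes. These shares count windows, not genes. The members were chosen as lysosomal and autophagy genes, many of which these factors are known to bind, so the shares are not a test. The stretches just before the transcript start that hold the matches follow, 5′ to 3′ on the strand of the gene, with the matches in capitals, since the expression of these 7 genes is compared with that of the factors below.
MCOLN1, chr19:7522524-7522623, forward strand: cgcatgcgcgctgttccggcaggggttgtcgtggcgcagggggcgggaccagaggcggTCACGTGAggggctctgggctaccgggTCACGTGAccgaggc
GAA, chr17:80101481-80101580, forward strand: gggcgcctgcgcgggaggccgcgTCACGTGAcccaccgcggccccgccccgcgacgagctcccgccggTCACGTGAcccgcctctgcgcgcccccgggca
LAMP1, chr13:113297039-113297238, forward strand: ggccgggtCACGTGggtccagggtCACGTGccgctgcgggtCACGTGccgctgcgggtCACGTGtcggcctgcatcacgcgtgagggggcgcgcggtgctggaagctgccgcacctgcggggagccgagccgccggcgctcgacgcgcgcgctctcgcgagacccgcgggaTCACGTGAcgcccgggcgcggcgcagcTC
ATP6V0D1, chr16:67481158-67481257, reverse strand: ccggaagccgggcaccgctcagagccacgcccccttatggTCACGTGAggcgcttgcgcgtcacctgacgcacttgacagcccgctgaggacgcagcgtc
CTSD, chr11:1763928-1764027, reverse strand: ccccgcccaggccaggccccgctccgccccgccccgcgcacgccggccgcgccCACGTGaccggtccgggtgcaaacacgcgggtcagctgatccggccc
CTSA, chr20:45891235-45891334, forward strand: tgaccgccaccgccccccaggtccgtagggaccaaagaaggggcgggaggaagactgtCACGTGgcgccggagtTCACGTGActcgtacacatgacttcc
NEU1, chr6:31862822-31862971, reverse strand: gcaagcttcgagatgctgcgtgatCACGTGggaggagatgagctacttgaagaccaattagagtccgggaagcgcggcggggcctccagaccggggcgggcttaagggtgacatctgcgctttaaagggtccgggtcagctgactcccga

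LAMP1 held the most matches, 6 of CACGTG, of which the last crosses the transcript start and shows only its first 2 bases of TCACGTGA above. MCOLN1 and GAA each held TCACGTGA at both of their matches. None of these 7 genes was higher in CRLM1-OE than in Ctrl: MCOLN1, GAA, LAMP1, ATP6V0D1 and CTSD were lower, and CTSA and NEU1 did not pass, with a median log2 fold change of -0.20 over the 7. With total counts CTSA and NEU1 were higher than in Ctrl, MCOLN1, GAA and LAMP1 were lower and the other two did not pass. Of the 25 genes with a window and no match, 11 were higher, 7 lower and 7 did not pass, with a median of 0.01. Among better-counted genes 29.2% were higher and 38.8% lower against Ctrl, and 33.9% and 40.2% against Anti. With 7 genes, counts of calls are too small to be set apart from these shares. Against Anti the picture was more mixed, since CTSA and NEU1 were higher there, CTSD did not pass and 4 were lower. Across the other 25 genes 13 were higher and 8 lower. In Anti against Ctrl, where TFEB and TFE3 were lower, 5 of the 7 genes were lower and 0 higher (median -0.26). Of the 25 genes without a match 12 were lower and 1 higher there (median -0.10). A 0 to 5 split was thus not particular to CRLM1-OE. The 3 factor genes and NPC1, WIPI1, ULK1, CTSL, MAP1LC3B and GABARAPL1, which were higher against both controls, had no match in their windows, which says only that these letters are absent there. No test was made of this split, and a match is not evidence that a factor binds.

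**Figure D3:**
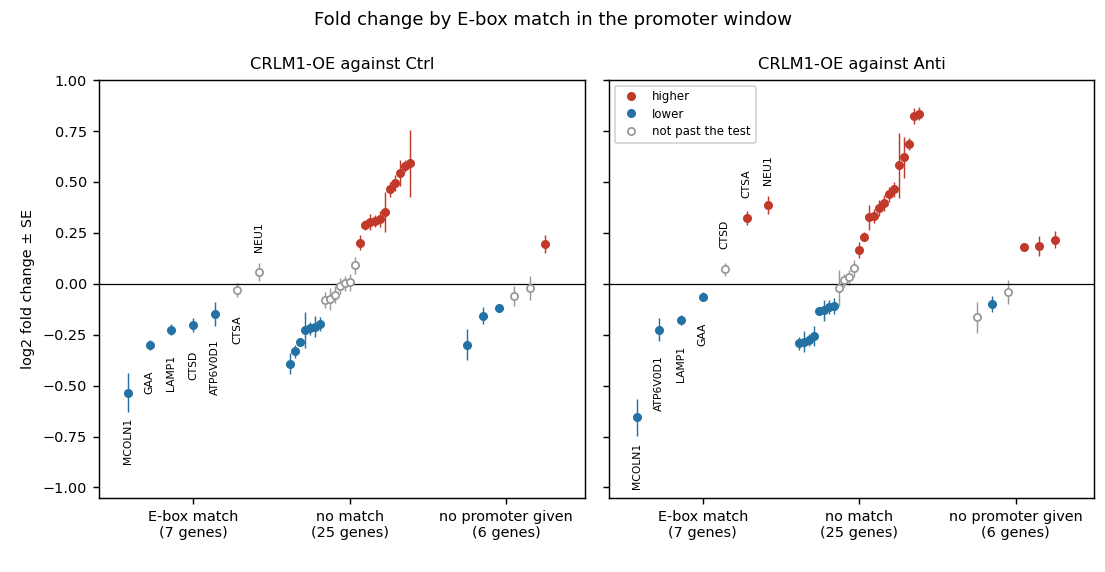
log2 fold change with its standard error (y axis) in CRLM1-OE against Ctrl and against Anti, for the 7 genes with a CACGTG E-box in the promoter window, the 25 genes with a window and no match and the 6 without a given window, 1 point per gene and coloured by call. In the left panel no gene with a match is red and 5 are blue (with total counts CTSA and NEU1 would be red), and in the right panel CTSA and NEU1 are red.

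Among the cathepsins, the proteases of the lysosome, CTSL alone was higher against both controls. CTSL (chromosome 9, 87724051 to 87731469), a cysteine endopeptidase, measured 76.8, 72.8 and 73.6 CPM in CRLM1-OE, 57.0, 52.2 and 52.5 in Ctrl and 57.5, 54.4 and 53.1 in Anti. All 3 CRLM1-OE libraries lay above the other 6, and the control groups overlapped. CTSL was 1.38-fold higher than in Ctrl (log2 fold change 0.46 ± 0.04, adjusted p = 5.2e-35 by edgeR) and 1.36-fold higher than in Anti (0.44 ± 0.03). CTSZ, a carboxypeptidase, went the other way, with 92.7, 92.7 and 88.3 CPM in CRLM1-OE, 111.6, 118 and 115 in Ctrl and 110.2, 112 and 110.4 in Anti, and log2 fold changes of -0.33 ± 0.03 and -0.28 ± 0.03. The exons of CTSZ share 31.6% of their bases with NELFCD on the opposite strand, whose log2 fold changes were -0.45 and -0.24; the strand setting of the counting is not given in the sources used here, so the part of NELFCD reads in this was not tested.

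CTSB, a cysteine protease and the most abundant of the 7 by FPKM, lay between the controls. It measured 492, 492 and 491 CPM in CRLM1-OE, 539, 534 and 531 in Ctrl and 427, 446 and 434 in Anti, and none of the groups overlapped. It was lower than in Ctrl (-0.12 ± 0.02, adjusted p = 1.8e-07 by edgeR) and higher than in Anti (0.18 ± 0.02, adjusted p = 1.2e-19), but with total counts its value against Ctrl turned to 0.02. CTSD, the aspartic protease, showed a like order (-0.20 ± 0.03 against Ctrl, 0.07 ± 0.03 and not past the test against Anti), and 48.0% of its exon bases are shared with other annotated genes. Its call against Anti was close to the threshold: CTSD passed as higher in 6 of the 14 alternatives, with RLE factors, total counts, filterByExpr, limma on either FPKM scale and without CRLM1-OE replicate 3 (0.08 to 0.13). CTSH, an aminopeptidase, was lower against both (-0.21 ± 0.05 and -0.26 ± 0.05). CTSA, which also shields NEU1 in a complex, stood at -0.03 ± 0.03 against Ctrl, a sign that total counts turned to 0.11, and was higher than in Anti (0.32 ± 0.03). It shares 21.5% of its exon bases with genes on the opposite strand, among them PLTP, whose log2 fold changes were 0.22 and 0.04. CTSC, which activates granule proteases, passed in neither, with 0.12 and a pass against Anti without CRLM1-OE replicate 3.

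The glycosidases, which trim sugars from glycoproteins, glycolipids and glycogen, were closer to their controls. GAA, the acid glucosidase that degrades glycogen, measured 229.6, 229.0 and 225.0 CPM in CRLM1-OE, 282, 280.3 and 282 in Ctrl and 239, 237 and 240.0 in Anti. The CRLM1-OE and Anti libraries were near each other and both were below Ctrl. Its log2 fold change was -0.30 ± 0.02 against Ctrl and -0.06 ± 0.02 against Anti, and the call against Anti was lost with total counts, without CRLM1-OE replicate 3 (-0.04) and without Anti replicate 2 (-0.06). NEU1, the sialidase, measured 43.5, 42.3 and 39.9 CPM in CRLM1-OE, 42.5, 37.9 and 40.3 in Ctrl and 34.9, 30.6 and 30.7 in Anti, so that Anti stood apart and the other groups overlapped. HEXA, the alpha subunit of beta-hexosaminidase, and GUSB, beta-glucuronidase, likewise passed as higher against Anti (0.18 ± 0.05 and 0.17 ± 0.04) and did not pass against Ctrl, and the difference was not tested. GUSB stood at 0.09 ± 0.04 against Ctrl and passed as higher in 6 of the 14 alternatives, with RLE factors, total counts, filterByExpr, limma on either FPKM scale and without Ctrl replicate 1 (0.10 to 0.23). GLA, alpha-galactosidase A, was lower than in Ctrl (-0.23 ± 0.09, adjusted p = 0.029 by edgeR), a call that DESeq2 did not make and that was lost without CRLM1-OE replicate 2 or 3 (-0.23 and -0.20) and without Ctrl replicate 1 or 3 (-0.23 and -0.16). RPL36A shares 8.99% of the exon bases of GLA on the opposite strand. It averaged 20620 counts in CRLM1-OE and 24410 in Ctrl, beside 338.7 and 367.3 for GLA. The log2 fold changes of RPL36A were -0.36 and -0.16, and the part of its reads in the GLA values was not tested. GLB1, beta-galactosidase, stood at -0.01 ± 0.04 against Ctrl and 0.03 ± 0.04 against Anti.

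NPC1 showed the largest fold change of any member against Anti, and in CRLM1-OE the genes for lysosomal lipid handling were higher or did not pass. NPC1 (chromosome 18, 23506184 to 23586506, reverse strand) encodes the membrane protein through which cholesterol leaves the lysosome. It measured 114.6, 117 and 120.1 CPM in CRLM1-OE, 79.6, 76.4 and 79.7 in Ctrl and 66.2, 64.9 and 66.5 in Anti. The groups were far apart and did not overlap. NPC1 was 1.49-fold higher than in Ctrl (log2 fold change 0.58 ± 0.03, adjusted p = 2.5e-72 by edgeR) and 1.79-fold higher than in Anti (0.84 ± 0.03), which placed it above 92.8% and 96.8% of better-counted genes. LIPA, the acid lipase that frees cholesterol from its esters, measured 53.8, 52.0 and 55.1 CPM in CRLM1-OE, 44.2, 40.7 and 45.4 in Ctrl and 41.2, 41.7 and 41.8 in Anti. Its log2 fold changes were 0.30 ± 0.04 and 0.37 ± 0.04. IFIT2 and IFIT3 lie opposite LIPA and are among the genes that together share 6.01% of its exon bases. They went the other way at -1.36 and -1.19 against Ctrl. NPC2, the soluble partner that hands cholesterol to NPC1, did not differ detectably from Ctrl (0.00 ± 0.04) and was higher than in Anti (0.33 ± 0.04).

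The 4 members grouped here as lysosomal membrane proteins and channel were lower in CRLM1-OE against both controls. Among better-counted genes 38.8% were lower against Ctrl and 40.2% against Anti. The direction is not common to lysosomal membrane proteins, since NPC1 above was higher. LAMP1, a major glycoprotein of the lysosomal membrane, measured 156, 154 and 157.5 CPM in CRLM1-OE, 179, 185 and 183 in Ctrl and 171.5, 181 and 177.5 in Anti. Every CRLM1-OE library lay below the other 6. LAMP1 was 1.17-fold lower than in Ctrl (log2 fold change -0.23 ± 0.03, adjusted p = 1.2e-15 by edgeR) and 1.13-fold lower than in Anti (-0.18 ± 0.02), and over the alternatives the value against Ctrl ran from -0.24 to -0.08. MCOLN1 (chromosome 19, 7522624 to 7534009, forward strand), the calcium channel TRPML1 of the lysosome, fell most, at 6.36, 6.02 and 5.96 CPM in CRLM1-OE, 8.32, 9.71 and 8.66 in Ctrl and 9.21, 9.43 and 10.41 in Anti. Its log2 fold changes were -0.54 ± 0.10 (adjusted p = 1.2e-07) and -0.66 ± 0.09, or 1.45-fold and 1.58-fold lower. PNPLA6, among the genes that together share 4.42% of the exon bases of MCOLN1 on the same strand, moved the opposite way at 0.67 and 0.68. SCARB2, a lysosomal membrane protein that acts as a sorting receptor, was lower at -0.20 ± 0.03 and -0.29 ± 0.03. LAMP2, which also serves chaperone-mediated autophagy, was lower at -0.16 ± 0.04 and -0.10 ± 0.04. The calls of SCARB2 against Ctrl and of LAMP2 in both comparisons were lost with total counts. Those of LAMP2 were also lost without Ctrl replicate 1 (-0.10 against Ctrl) and, against Anti, without CRLM1-OE replicate 2 or 3 (-0.10 and -0.07) or Anti replicate 1 or 2 (-0.10 and -0.08).

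The V-ATPase members did not move as a set. ATP6V1A, the catalytic subunit of its cytosolic sector, measured 43.8, 41.8 and 42.7 CPM in CRLM1-OE, 37.1, 37.97 and 37.2 in Ctrl and 35.7, 37.9 and 37.1 in Anti, a rise above all control libraries of 0.19 ± 0.04 and 0.22 ± 0.04 (log2). ATP6V0D1, of the membrane sector, was lower at -0.15 ± 0.06 and -0.23 ± 0.06, but 1 Ctrl library overlapped the CRLM1-OE libraries and the call against Ctrl was lost in 9 of the 14 alternatives, among them those without CRLM1-OE replicate 1 or 2 (-0.14 and -0.13) and Ctrl replicate 1 or 2 (-0.11 and -0.12). Without Anti replicate 3 the call against Anti was lost too (-0.15). ATP6AP1, an accessory subunit, was lower than in Ctrl (-0.22 ± 0.03) and at 0.02 ± 0.03 against Anti. ATP6V1H, a regulatory subunit, stood at -0.02 ± 0.06 and -0.04 ± 0.06, signs that total counts turned.

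**Figure D4:**
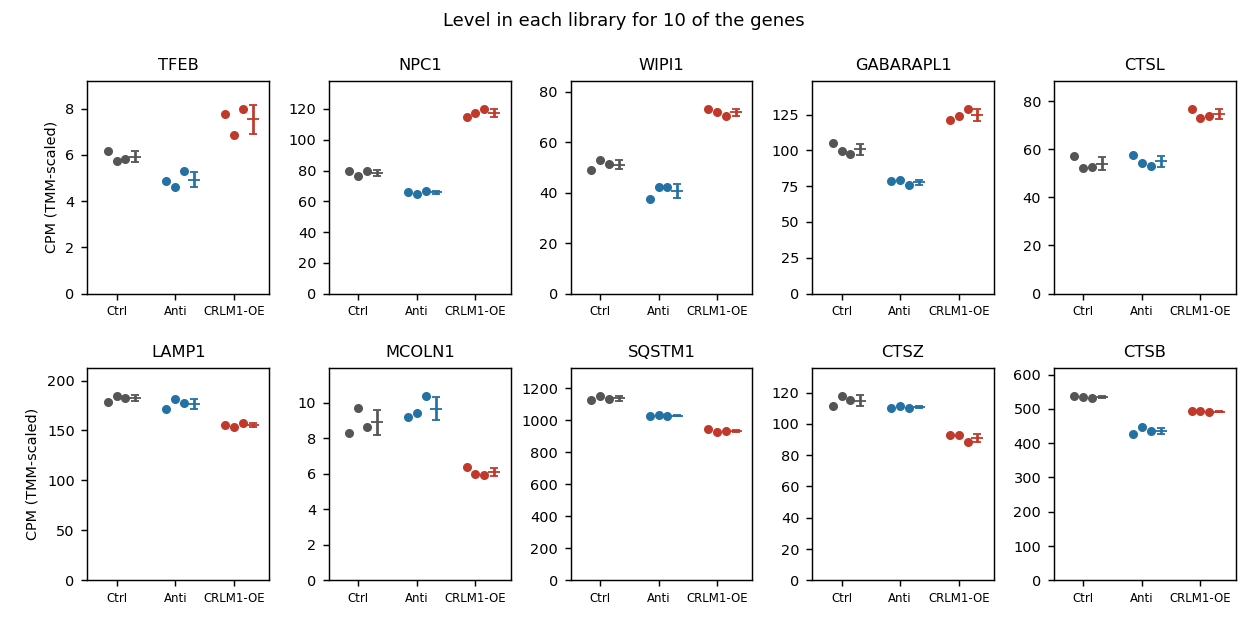
CPM (TMM-scaled, y axis from 0) of 10 genes in each library, with Ctrl in grey, Anti in blue and CRLM1-OE in red; dashes and bars beside the points are the mean and SD of 3 libraries. NPC1, WIPI1, GABARAPL1 and TFEB are highest in CRLM1-OE and lowest in Anti, CTSL is high in CRLM1-OE only, LAMP1, MCOLN1, SQSTM1 and CTSZ are lowest in CRLM1-OE, and CTSB in CRLM1-OE lies between the controls.

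In the autophagy genes, the 3 ATG8-family members were higher and the receptor SQSTM1 lower. GABARAPL1 (chromosome 12, 10212458 to 10223128, forward strand), which is lipidated onto the autophagic membrane, measured 121, 124 and 129 CPM in CRLM1-OE, 105, 99.7 and 97.3 in Ctrl and 78.5, 79.0 and 75.5 in Anti. The groups did not overlap. Its log2 fold change was 0.31 ± 0.03 against Ctrl (adjusted p = 5.8e-23 by edgeR) and 0.68 ± 0.03 against Anti, or 1.24-fold and 1.61-fold higher. MAP1LC3B, the common marker protein of autophagosomes, measured 264.5, 261 and 256 CPM in CRLM1-OE, 213, 219 and 208 in Ctrl and 220.5, 219.8 and 227 in Anti, with log2 fold changes of 0.29 ± 0.03 and 0.23 ± 0.02. GABARAPL2 was higher by 0.32 ± 0.04 and 0.40 ± 0.04. GABARAPL1 and MAP1LC3B have near-identical copies elsewhere in the genome, so their counts are uncertain.

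SQSTM1 (chromosome 5, 179806398 to 179838078, forward strand) measured 943, 926 and 931 CPM in CRLM1-OE, 1127, 1154 and 1132 in Ctrl and 1025, 1031 and 1026 in Anti. Every CRLM1-OE library was below every Anti library, and these below every Ctrl library. It was 1.22-fold lower than in Ctrl (log2 fold change -0.28 ± 0.02, adjusted p = 9e-50 by edgeR) and 1.10-fold lower than in Anti (-0.13 ± 0.02). MGAT4B is among the genes that share 22.4% of the exon bases of SQSTM1 on the opposite strand, and its log2 fold changes were 0.04 and -0.14. SQSTM1 was thus lower in the cells in which the ATG8-family mRNAs were higher. SQSTM1 protein is itself degraded by autophagy, and protein was not measured in these data.

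The initiation and core genes split within the pathway. ULK1 (chromosome 12, 131894622 to 131923150, forward strand), the kinase that starts autophagy, measured 20.8, 20.3 and 20.5 CPM in CRLM1-OE, 13.5, 13.1 and 15.8 in Ctrl and 16.8, 16.8 and 15.6 in Anti. The CRLM1-OE libraries stood above both control groups, which overlapped. ULK1 was 1.46-fold higher than in Ctrl (log2 fold change 0.55 ± 0.06, adjusted p = 4.1e-16 by edgeR) and 1.25-fold higher than in Anti (0.33 ± 0.06). WIPI1 (chromosome 17, 68420948 to 68457513, reverse strand), which reads the phosphoinositide of the young autophagosome, measured 73.2, 71.9 and 70.3 CPM in CRLM1-OE, 49.1, 52.8 and 51.2 in Ctrl and 37.5, 42.4 and 42.3 in Anti, with no overlap. Its log2 fold changes were 0.49 ± 0.04 and 0.82 ± 0.04, or 1.409-fold and 1.77-fold. ARSG is among the genes that together share 28.1% of the exon bases of WIPI1 on the opposite strand. ARSG averaged 365 counts in CRLM1-OE and WIPI1 2839, the log2 fold changes of ARSG were -0.04 and -0.31, and the part of ARSG reads in the WIPI1 values was not tested.

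ATG5, which joins ATG12 to attach ATG8 proteins to lipid, was the lowest of this group relative to Ctrl. It measured 23.6, 23.8 and 24.7 CPM in CRLM1-OE, 30.9, 31.8 and 31.98 in Ctrl and 29.8, 28.5 and 29.6 in Anti, so that CRLM1-OE lay below both. Its log2 fold changes were -0.39 ± 0.05 (adjusted p = 3.6e-13 by edgeR) and -0.28 ± 0.05. UVRAG, a subunit of the phosphoinositide kinase complex, was lower than in Ctrl (-0.30 ± 0.08, lost with total counts) and did not pass against Anti (-0.16 ± 0.08), except without CRLM1-OE replicate 2 (-0.24). BECN1, the core of that complex, ATG7, the activating enzyme of both conjugation systems, and ATG9A, the lipid scramblase, passed as lower against Anti (-0.11 ± 0.04, -0.13 ± 0.05 and -0.11 ± 0.04), and all 3 calls were lost with total counts. That of ATG7 was also lost without any 1 of the CRLM1-OE replicates or Anti replicate 2 or 3 (-0.14 to -0.11), and that of ATG9A without CRLM1-OE replicate 3 or Anti replicate 1 or 3 (-0.10 to -0.08). They share 17.1%, 18.1% and 38.8% of their exon bases with other genes. PSME3, among those opposite BECN1, had log2 fold changes of -0.54 and -0.705, and VGLL4, opposite ATG7, of -0.20 and -0.34. In CRLM1-OE PSME3 averaged 3448 counts beside 2245 for BECN1, and VGLL4 2563 beside 1042 for ATG7. The part of their reads in these calls was not tested. Against Ctrl BECN1, ATG7 and ATG9A stood at -0.08, -0.07 and 0.01. The signs of BECN1 and ATG7 turned with total counts, while BECN1 passed as lower in the fit of all 9 samples.

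The 2 control groups were also compared with each other, and the antisense RNA and any other difference between these groups cannot be told apart. In Anti against Ctrl 19 members were lower (50%), 1 was higher (2.63%) and 18 did not pass. Of all 29714 genes tested 11.5% were higher and 12.2% lower, and of the 11623 better-counted genes 25.3% and 28.9%. The median log2 fold change of the members was -0.10, and that of the better-counted genes -0.01. No member reached 2-fold by any of the tools, beside 0.129% of the better-counted genes. With total counts the members split into 9 higher and 13 lower, and the shares of better-counted genes on that scale are not given here.

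The lowest in Anti relative to Ctrl were GABARAPL1 (-0.40 ± 0.03, adjusted p = 4.1e-33 by edgeR), CTSA (-0.37 ± 0.04), NPC2 (-0.35 ± 0.04), NEU1 (-0.35 ± 0.05), WIPI1 (-0.35 ± 0.04) and CTSB (-0.32 ± 0.02). CTSD, TFEB, TFE3 and NPC1 followed, between -0.30 and -0.28. ULK1 was the gene that was higher (0.20 ± 0.07, adjusted p = 0.023), a call that DESeq2 did not make and that was lost without Ctrl replicate 1 or 2 or Anti replicate 1 or 2 (0.15 to 0.18). The call of TFEB was lost with total counts, DESeq2 and limma on either FPKM scale and without any 1 Ctrl replicate or Anti replicate 1 or 2 (-0.31 to -0.25). CTSZ, at -0.08 ± 0.03, and LAMP1, at -0.07 ± 0.03, turned to 0.03 and 0.04 with total counts, and their calls were lost without most single replicates.

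Combining the 3 sets of calls, which share libraries, GABARAPL1, NPC1, TFE3, TFEB and WIPI1 passed as highest in CRLM1-OE and lowest in Anti. CTSA, HEXA, NEU1 and NPC2 were lower in Anti than in both other groups, which did not differ by the test. ATP6V1A, CTSL, GABARAPL2, LIPA, MAP1LC3B and MITF were higher in CRLM1-OE, and the controls did not differ by the test. CTSH, LAMP2, SCARB2, MCOLN1 and ATP6V0D1 were lower in CRLM1-OE with the same qualification.

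Related genes outside the 38 were counted in the same fits. Of 31 other lysosomal hydrolases and activators tested against Ctrl, 7 were higher (22.6%) and 10 lower (32.3%), and of 30 tested against Anti 9 were higher (30.0%) and 10 lower (33.3%). Of 18 other lysosomal membrane proteins, 5 were higher (27.8%) and 7 lower (38.9%) against Ctrl, and 6 higher (33.3%) and 10 lower (55.6%) against Anti. The shares among better-counted genes were 29.2% higher and 38.8% lower against Ctrl and 33.9% and 40.2% against Anti. In each of these lists no more than 1 gene changed by 2-fold against Ctrl and 3 did against Anti. ARSB, a sulfatase of glycosaminoglycan breakdown, was lower against both (-0.53 ± 0.14, lost with limma on either FPKM scale, and -0.83 ± 0.13). SMPD1, acid sphingomyelinase, was higher against both (0.65 ± 0.09 and 0.83 ± 0.10).

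Of the membrane proteins, CTNS, the cystine exporter, was lower at -0.75 ± 0.13 against Ctrl and -1.16 ± 0.12 against Anti. LAMP3 was lower at -0.50 ± 0.08 and -1.03 ± 0.08. The endolysosomal cation channels TPCN1 and TPCN2 parted: TPCN1 was higher (0.48 ± 0.05 and 0.29 ± 0.04) and TPCN2 lower (-0.54 ± 0.13 and -1.03 ± 0.12). In CTNS, LAMP3 and TPCN2 the order was the reverse of that of TFEB, with CRLM1-OE lowest and Anti highest and no overlap of the groups.

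Of 19 other V-ATPase subunits, 3 were higher and 3 lower against Ctrl (15.8% each), and 8 were higher (42.1%) and 5 lower (26.3%) against Anti. ATP6V1B2, the partner of ATP6V1A in the catalytic ring, was higher at 0.44 ± 0.04 and 0.50 ± 0.04. ATP6V0A2, of the membrane sector, was lower at -0.55 ± 0.07 and -0.97 ± 0.07, and ATP6V1D, of the central stalk, at -0.41 ± 0.06 and -0.34 ± 0.06. Of 34 other autophagy genes, 10 were higher (29.4%) and 7 lower (20.6%) against Ctrl, and 17 higher (50%) and 8 lower (23.5%) against Anti. ATG2A, which moves lipid into the growing membrane, was higher at 0.66 ± 0.08 and 0.31 ± 0.07. EPG5, a tether for fusion with the lysosome, was higher at 0.63 ± 0.07 and 0.57 ± 0.06, ATG16L1, which places the ATG5 conjugate, at 0.57 ± 0.05 and 0.40 ± 0.04, and ULK3, a kinase related to ULK1, at 0.53 ± 0.05 and 0.39 ± 0.05.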

How the data were processed

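The 9 libraries were HCT116 cells in 3 groups of 3, grouped by the submitters' labels. Per the study's methods, the authors trimmed reads, aligned them with TopHat2 to GRCh38 with a Gencode annotation and counted uniquely mapped reads. They deposited raw counts per gene, and FPKM values scaled by exon length and library total, which served only to compare levels between genes and in alternative fits. Strand setting, the TopHat2 version and whether pairs were counted once are not given in the sources used here. Counts were tested with edgeR 4.0.16 (TMM factors, quasi-likelihood test, 1 comparison and 6 samples at a time, genes with at least 1 count) and Benjamini-Hochberg adjustment at 0.05. CPM values are TMM-scaled over all 9 libraries. With 3 samples against 3, an exact permutation test of 1 gene cannot go below a two-sided p of 0.1, so none is given. DESeq2 1.42.0, limma 3.58.1 on log2(FPKM + 0.1) and log2(FPKM + 1), other scaling and filters, a fit of all 9 samples, a replicate block and leaving out each replicate were alternatives. The fits were tested on simulated data. All 38 members are described, and of each other list the 4 genes with the largest change against Ctrl among those at adjusted p of at most 0.05 and a mean count of at least 100; some genes that this rule names are not reported here. Members and lists were chosen with earlier results of these data known. Shared exon bases and positions come from GENCODE 44. CTSF, CD3E and LUM were not analysed here, and CLN3 was left out because it has 2 rows.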

Additional observations from a re-analysis of the deposited data

How the results depend on the processing

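For the 38 genes, a count kept within 1.5 times its value under all alternatives for higher calls of CRLM1-OE against Ctrl and against Anti. The lower calls of CRLM1-OE against Ctrl went from 15 to 7 with total counts and to 7 with limma on either FPKM scale, and those against Anti from 13 to 8 and to 7. In Anti against Ctrl, higher calls went from 1 to 9 with total counts, 0 with DESeq2 and 3 with limma on either scale, and lower calls from 19 to 12 with limma. Leaving out 1 library gave 0 to 2 higher calls there (0 without Ctrl replicate 2 or Anti replicate 1, 2 without Anti replicate 2), and 9 to 12 lower calls against Anti. Same-numbered replicates deviated together about as little as others (r -0.02 to 0.07 against -0.08 to 0.05 for other numbers). The deviations thus gave no clear sign that the numbers pair the samples, but such correlations cannot exclude it. With the replicate block, the counts were 12 and 15 against Ctrl, 18 and 12 against Anti, and 1 and 19 for Anti against Ctrl, LAMP2 against Anti being the call lost. The genes whose sign turned had main values between -0.12 and 0.03. Against Ctrl, with total counts, limma on log2(FPKM + 0.1) and limma on log2(FPKM + 1) in turn, CTSA was 0.112, 0.086 and 0.083, CTSC 0.087, 0.058 and 0.049, HEXA 0.08, 0.051 and 0.043, GLB1 0.13, 0.104 and 0.099, ATP6V1H 0.121, 0.092 and 0.08, BECN1 0.062, 0.036 and 0.035, and ATG7 0.067, 0.042 and 0.035. CTSB was 0.022 with total counts. Against Anti, GLA was 0.038, 0.03 and 0.025 and ATP6V1H 0.019, 0.007 and 0.006. For Anti against Ctrl, CTSZ was 0.027, 0.013 and 0.013 and LAMP1 0.036, 0.022 and 0.022. FPKM is scaled by library totals too. GLB1 was 0.003 with filterByExpr, and in the fit of all 9 samples NPC2 was -0.014 and ATG9A -0.01, all against Ctrl. Leaving out 1 library gave, against Ctrl, -0.02 to 0.027 for NPC2, -0.014 to 0.046 for ATG9A, -0.022 to 0.023 for GLB1 and -0.031 to 0.012 for ATP6V1H, and against Anti -0.096 to 0.039 for GLA and -0.001 to 0.071 for GNPTG. Unknown differences between the groups, the lack of strand information and 3 libraries a group limit all values.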

Other observations

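Genes of the nutrient-sensing machinery of the lysosomal surface were counted too. The list of 21 held mTORC1 and its activator RHEB, the Rag GTPases, Ragulator and folliculin with its partners, but also the mTORC1 inhibitors TSC1, TSC2, DEPTOR and AKT1S1 and the MiT/TFE family gene TFEC. Of the 21, 11 rose (52.4%) and 4 fell (19.0%) in CRLM1-OE against Ctrl, and 12 rose (57.1%) and 5 fell (23.8%) against Anti, with median log2 fold changes of 0.10 and 0.24. Among all genes with a mean of at least 100 counts the shares were 29.2% and 38.8% against Ctrl and 33.9% and 40.2% against Anti, with medians of -0.04 in both. FLCN, the folliculin that acts on RRAGC, measured 12.04, 11.9 and 11.5 CPM in CRLM1-OE, 8.41, 9.33 and 9.502 in Ctrl and 9.16, 8.71 and 8.70 in Anti. It was higher against both controls (log2 fold change 0.39 ± 0.08 and 0.42 ± 0.08, adjusted p = 1.1e-05 and 9.3e-07 by edgeR). RRAGC was higher at 0.49 ± 0.07 and 0.24 ± 0.07, and FNIP2, a folliculin partner of low count, at 0.85 ± 0.15 and 0.34 ± 0.14, the latter lost with DESeq2, with limma, in the fit of all 9 samples and without CRLM1-OE replicate 1 or 2 (0.31 and 0.29) or Anti replicate 1 or 3 (0.36 and 0.22). RRAGB was lower at -0.51 ± 0.15 and -0.75 ± 0.14.

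Of 7 genes for sorting of hydrolases to the lysosome, 2 were higher and 2 lower against Ctrl, and none was higher and 4 lower against Anti (edgeR). As shares these were 28.6% and 28.6%, and 57.1% lower against Anti, to be read beside the shares of better-counted genes above. Of the mannose-6-phosphate receptors, M6PR was lower against Ctrl at -0.15 ± 0.03, a call lost with total counts (-0.005) and limma on either FPKM scale, and against Anti at -0.07 ± 0.03. The call of M6PR against Anti was lost in 10 of the 14 alternatives, namely RLE factors, total counts, DESeq2, limma on either FPKM scale, the replicate block and without CRLM1-OE replicate 1 or 3 or Anti replicate 1 or 3 (-0.07 to -0.01). IGF2R was higher than in Ctrl (0.29 ± 0.04) and lower than in Anti (-0.17 ± 0.03). IGF2R measured 73.2, 71.0 and 70.8 CPM in CRLM1-OE, 58.9, 60.1 and 56.4 in Ctrl and 80.9, 80.1 and 81.9 in Anti, and the 3 groups did not overlap. SORT1 was lower at -0.28 ± 0.05 and -0.28 ± 0.05, the former lost with limma on either FPKM scale, and GNPTG stood at 0.18 ± 0.06, past the test but not without CRLM1-OE replicate 2 or Ctrl replicate 1 (0.15 and 0.16), and at 0.03 ± 0.06 against Anti, which did not pass.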
